A study of Homo sapiens with 6 samples.

Results

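The genes described here are the ligands, receptors and secreted antagonists of the Wnt pathway, with the intracellular proteins AXIN1, AXIN2 and CTNNB1, in U251 cells, an established human glioblastoma line. Members were picked by gene symbol, as the protein-coding genes of the WNT, FZD, DKK, SFRP, RSPO and LGR4 to LGR6 families together with LRP5, LRP6, FRZB, WIF1, AXIN1, AXIN2 and CTNNB1. The rule gave 51 genes of the 20330 Ensembl genes listed in every library: 19 ligands, 10 Frizzled receptors, 2 co-receptors, 4 R-spondins, 3 R-spondin receptors, 10 secreted antagonists and 3 intracellular proteins. RNA sequencing was done on 6 libraries, 3 of U251 control cells and 3 of U251 cells with stable overexpression of the long noncoding RNA XLOC013218. No source used here says what the control cells carry, or whether the overexpressing cells are 1 clone or a selected population. The series describes the replicates as independent biological ones without naming separate cultures, so p-values measure the spread between these libraries. XLOC013218 itself was not analysed here, so that the overexpression rests on the labels and was not checked in these values.

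Wnt proteins are secreted lipid-modified ligands that bind a Frizzled receptor together with the co-receptor LRP5 or LRP6. Binding disables the cytoplasmic complex built on AXIN1 or AXIN2, so that beta-catenin, the product of CTNNB1, escapes degradation and activates target genes with TCF and LEF factors in the nucleus. R-spondins, through LGR4, LGR5 and LGR6, keep Frizzled receptors at the cell surface. Dickkopf proteins such as DKK1 block the co-receptors, while the SFRP family, FRZB and WIF1 bind Wnt proteins outside the cell. In glioma cells WNT5A, which mostly signals without beta-catenin, has been linked to migration.

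Levels are FPKM values as the authors deposited them, a read measure corrected for the length of the transcript and the size of the library, so that genes of different length can be set side by side. Read totals are unknown. From the steps between low values the depth of the 6 libraries was estimated at between 0.77 and 1.0 relative to control replicate 2. Of 10 glioma and astrocyte markers 7 averaged at least 1 FPKM, and the list summed to 5072 to 5455 FPKM in the controls and 4792 to 5016 FPKM with overexpression. VIM, NES, SOX9 and CD44 were at 42.9 FPKM or more in every library, and SLC1A3 ranged from 2.91 to 3.66 FPKM in the controls and from 2.82 to 5.87 FPKM with overexpression. SOX2 ranged from 114 to 119 FPKM in the controls and from 98.1 to 105 FPKM with overexpression. GFAP ranged from 34.7 to 46.0 FPKM in the controls and from 14.4 to 30.1 FPKM with overexpression. Both were lower without overlap, as were 10.1% of all genes tested below. S100B, AQP4 and ALDH1L1 were below 1 FPKM throughout. The oligodendrocyte list, with MAG at 0 in all 6 libraries, summed to at most 1.0 FPKM, and the 4 endothelial markers listed of 5 to at most 0.92 FPKM. The neuron list summed to 10.5 to 11.98 FPKM in the controls and 10.01 to 12.7 FPKM with overexpression. The leukocyte list summed to 6.84 to 7.76 FPKM in the controls and 10.2 to 11.9 FPKM with overexpression, nearly all of it CD68. PTPRC ranged from 0.13 to 0.17 FPKM in the controls and from 0.39 to 0.65 FPKM with overexpression. CD68 was higher without overlap, as were 8.81% of all genes tested below. At 0.68 FPKM or less, PTPRC and P2RY12 were higher and CDH5 lower without overlap. Among genes with a mean between 0.1 and 1 FPKM, 12.5% did not overlap in either direction. In the comparison of groups described below, genes averaging under 1 FPKM were not tested. That left 7 glioma and astrocyte markers, 3 neuron markers, 1 leukocyte marker, and 0 of the oligodendrocyte and endothelial lists. Of these tested markers 0 reached an adjusted p under 0.05, against 0.520% of all tested genes. The part of these marker differences, GFAP and SOX2 included, in the results below was not tested. In bulk libraries, fewer cells that express a gene and less RNA per cell cannot be told apart.

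U251 cells expressed a part of this repertoire. Of the 51 members, 26 reached 0.5 FPKM in at least 1 library, 25 stayed below it in all 6, and 4 of these (WNT7A, WNT9B, FZD10 and SFRP2) were listed at 0 throughout. DKK1 was the most abundant member, at a mean of 213 FPKM over the 6 libraries, which ranked 402 among all 20330 genes, and CTNNB1 followed at 127 FPKM with rank 819. DKK3, SFRP1 and FZD2 averaged 46.1, 34.8 and 30.8 FPKM, and WNT5B, the leading ligand, averaged 20.9 FPKM. WNT5B, FZD6, LRP5, LRP6, AXIN1 and LGR4 lay close together, between 15.8 and 20.9 FPKM, and the ranges of neighbours in this order overlapped.

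**Figure D1:**
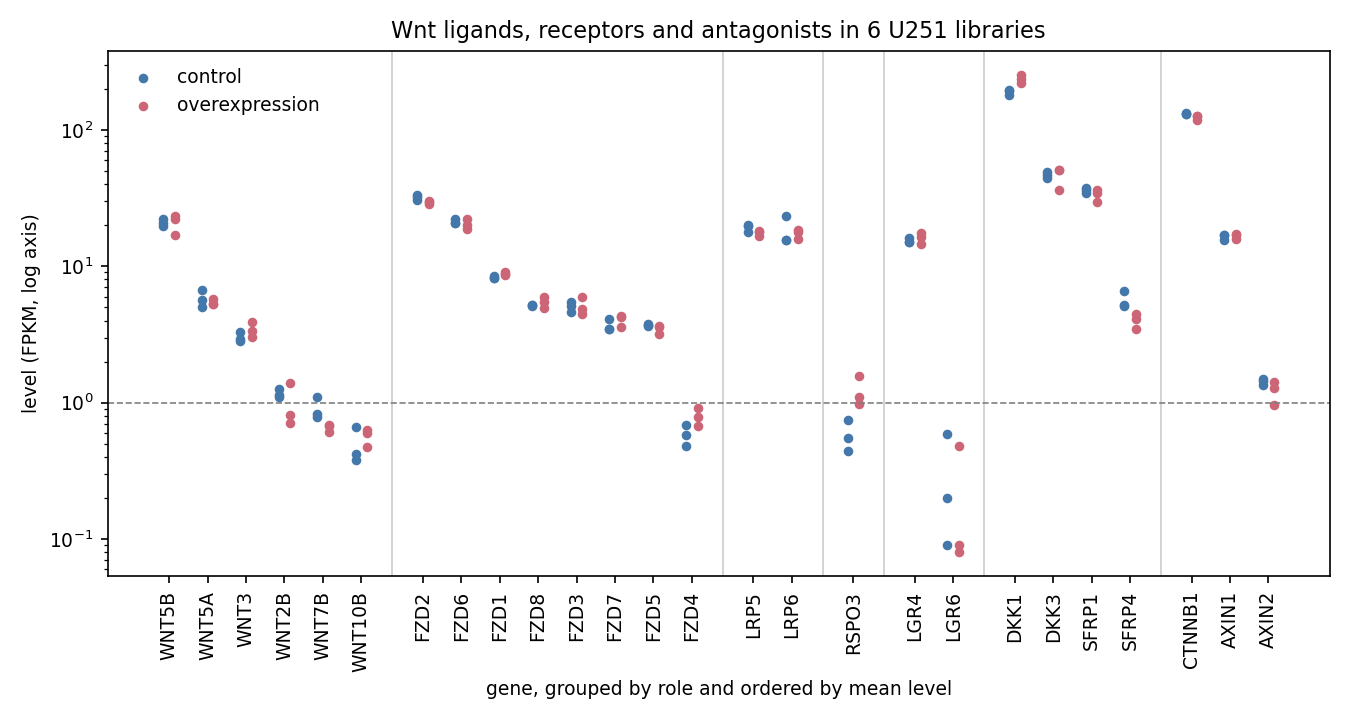
Level in FPKM (log axis) of the 26 members that reached 0.5 FPKM in any library, grouped by role, with 1 point per library, control in blue and overexpression in red. The dashed line marks 1 FPKM, and a mean above it over the 6 libraries was required for testing. DKK1 and CTNNB1 lie between 118 and 254 FPKM in all 6 libraries, while RSPO3 is the only R-spondin shown.

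The groups were compared in 1 limma fit of log2(FPKM + 1) over the 11731 genes with a mean of at least 1 FPKM, with Benjamini-Hochberg adjustment over all of them. Fold changes are on this scale, on which differences of weakly expressed genes come out too small. Of the 51 members, 21 were tested and 30 were too low. An adjusted p under 0.05 was reached by 61 genes, 0.520% of those tested, and by 0 members. DKK1 came nearest, with means of 189 FPKM for control and 237 FPKM for overexpression and a limma adjusted p of 0.0563. At an unadjusted p under 0.05 there were 2 members, DKK1 and SFRP4, where the share over all tested genes was 12.7%. In 6 of the 21 tested members the groups did not overlap, which held for 18.9% of all tested genes. Overexpression was the higher group in 2 of them, against 8.81% of all tested genes, and the lower in 4, against 10.1%. The median log2 fold change was -0.04 over the tested members and -0.00078 over all tested genes, with 7 members above 0 and 14 below, while 5897 of the 11731 genes were below 0. The median of the members was -0.0051 without overexpression replicate 2 (10 above 0 and 11 below), -0.02 without control replicate 3 (10 and 11) and -0.10 without overexpression replicate 3 (7 and 14), and with control replicate 1 or 2 left out it was -0.07 (8 and 13).

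The 3 promoters printed here belong to the members furthest apart between the groups, namely DKK1 and SFRP4 among tested genes and RSPO3 among those too low to test. Each is the 250 bases before the start of the gene, 5′ to 3′ on the gene's strand, from RefSeq on GRCh38.p14, and capitals mark the motifs searched. DKK1 is read from chr10:52314031-52314280 on the plus strand, SFRP4 from chr7:37916818-37917067 on the minus strand and RSPO3 from chr6:127118421-127118670 on the plus strand.
DKK1: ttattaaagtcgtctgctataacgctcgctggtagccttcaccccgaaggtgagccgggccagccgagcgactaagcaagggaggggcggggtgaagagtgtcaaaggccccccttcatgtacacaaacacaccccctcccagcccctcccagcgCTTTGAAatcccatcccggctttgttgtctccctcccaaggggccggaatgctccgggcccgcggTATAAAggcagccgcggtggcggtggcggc
SFRP4: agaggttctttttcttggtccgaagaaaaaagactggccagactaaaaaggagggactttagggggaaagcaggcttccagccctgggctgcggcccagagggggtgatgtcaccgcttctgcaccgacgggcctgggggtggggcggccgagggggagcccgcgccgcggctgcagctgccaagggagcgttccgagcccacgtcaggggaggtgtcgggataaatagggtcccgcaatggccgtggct
RSPO3: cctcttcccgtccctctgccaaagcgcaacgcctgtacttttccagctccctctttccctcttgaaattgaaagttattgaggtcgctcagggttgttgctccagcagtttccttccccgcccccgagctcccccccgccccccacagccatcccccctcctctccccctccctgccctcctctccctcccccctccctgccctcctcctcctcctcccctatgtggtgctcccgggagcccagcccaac
The motifs were CTTTGAT and CTTTGAA for TCF and LEF factors and TGACTCA and TGAGTCA for AP-1, each on both strands, and TATAAA on the gene's own strand. The DKK1 window held CTTTGAA from 95 bases before the start and TATAAA from 30 bases before it, and the matches did not overlap. Among the 14827 promoters of protein-coding genes in the table, 4.8% held a TCF and LEF motif, 3.14% an AP-1 motif and 6.44% a TATAAA. RefSeq windows were matched for 35 of the 51 members. Of these, DKK1 alone held a TCF and LEF motif, 0 held an AP-1 motif, and DKK1 and FZD8 held TATAAA. The windows of the 13 tested members had a median GC content of 65.2%, those of the 22 untested members 75.4%, and all promoters 62.8%.

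Among the secreted antagonists, 4 of 10 were expressed at a level that could be tested, and DKK1 provided most of their summed level. DKK1 (ENSG00000107984, chromosome 10), the Dickkopf protein that binds LRP5 and LRP6 and is itself a known target of beta-catenin, was at 180.1, 192 and 195 FPKM in control replicates 1 to 3 and at 235, 254 and 221 FPKM in overexpression replicates 1 to 3. All 3 overexpressing libraries were above all 3 controls. The gap between the groups, from 195 to 221 FPKM, was wider than the control range but narrower than the range of the overexpressing libraries. The group means were 189 ± 7.92 and 237 ± 16.7 FPKM (SD, n = 3 per group), and the log2 fold change was 0.32 (SE 0.06, 95% interval 0.19 to 0.45, limma adjusted p = 0.0563). Its p ranked 85 of 11731. With array quality weights, which let limma give libraries unequal weight, DKK1 did pass (limma adjusted p = 0.0342), as did 1.68% of all tested genes, while under the remaining alternatives its limma adjusted p lay between 0.0532 and 0.202. DKK1 made up between 67.3% and 69.6% of the summed FPKM of the 10 antagonists in control cells and between 72.2% and 76.7% in overexpressing cells.

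SFRP4 (ENSG00000106483, chromosome 7), a secreted Frizzled-related protein, lay on the other side. It was at 6.56, 5.23 and 5.07 FPKM in control and at 4.49, 4.10 and 3.48 FPKM in overexpressing cells, again without overlap. The means were 5.62 ± 0.818 and 4.02 ± 0.509 FPKM, and the log2 fold change was -0.40 (SE 0.12, 95% interval -0.68 to -0.12), which did not pass (limma adjusted p = 0.232). Control replicate 1 stood above the other controls, and without it the log2 fold change was -0.30. SFRP1 (chromosome 8), a relative of SFRP4 that also sequesters Wnt proteins, was at 34.3, 37.3 and 36.1 FPKM in control and at 34.7, 36.5 and 29.8 FPKM in overexpressing cells, where replicate 3 alone lay below the controls (log2 fold change -0.10, and -0.01 without that library). DKK3 (chromosome 11), a divergent Dickkopf protein that is not a typical Wnt inhibitor, was at 46.5, 48.9 and 43.99 FPKM in control and at 50.9, 36.2 and 50.4 FPKM in overexpressing cells. Its overexpressing libraries lay on both sides of the controls, with replicate 2 far below the other 2. DKK2, DKK4, FRZB, SFRP2, SFRP5 and WIF1 stayed at or below 0.43 FPKM, the highest value being that of WIF1 in overexpression replicate 1.

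**Figure D2:**
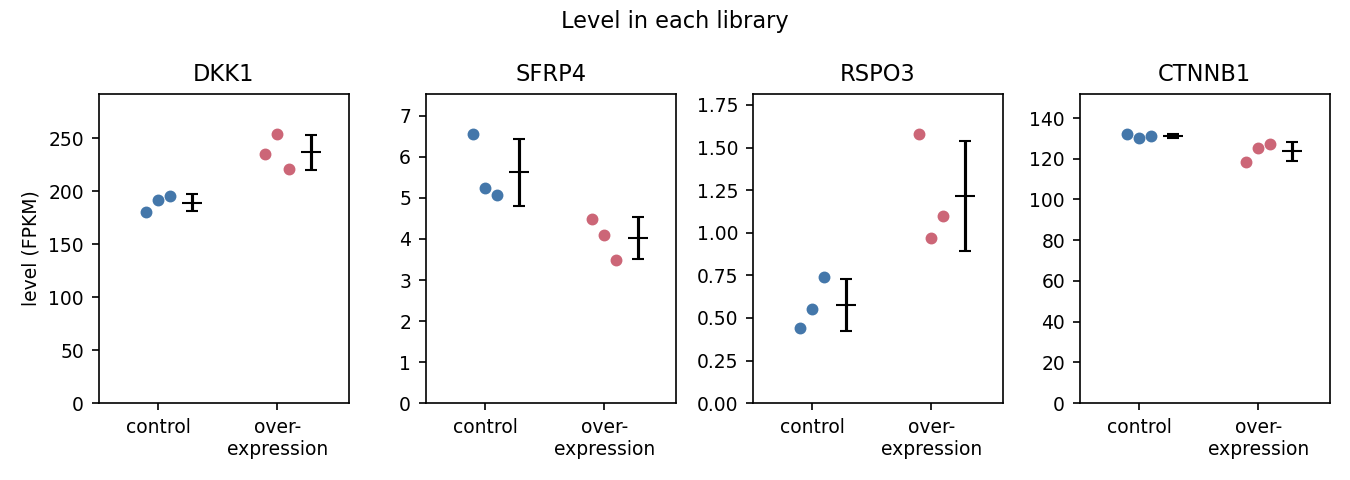
Level in FPKM of DKK1, SFRP4, RSPO3 and CTNNB1 in each of 3 control (blue) and 3 overexpression (red) libraries, with the group mean and SD in black and each axis starting at 0. In all 4 genes the groups do not overlap, and the gap is narrow in CTNNB1 at 130.4 against 127 FPKM.

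Of the 19 ligands, 4 were tested, and WNT5B led them. WNT5B (chromosome 12), like WNT5A a ligand that mostly acts without beta-catenin, was at 19.8, 20.9 and 22.1 FPKM in control and at 22.4, 17.0 and 23.3 FPKM in overexpressing cells. The overexpressing libraries lay on both sides of the controls, and the log2 fold change was -0.01 (95% interval -0.26 to 0.24). WNT5A (chromosome 3) was at 5.06, 5.66 and 6.71 FPKM in control and at 5.30, 5.73 and 5.29 FPKM in overexpressing cells, the latter all inside the control range. WNT3 (chromosome 17), a ligand of the beta-catenin branch, was at 3.28, 2.94 and 2.81 FPKM in control and at 3.35, 3.03 and 3.87 FPKM in overexpressing cells. WNT2B (chromosome 1), another such ligand, was at 1.13, 1.26 and 1.10 FPKM in control and at 1.39, 0.71 and 0.81 FPKM in overexpressing cells. Both genes overlapped between groups, and their log2 fold changes of 0.14 and -0.15 were about as large as their SE of 0.12 and 0.16. The value of WNT3 was 0.06 without overexpression replicate 3, and that of WNT2B was -0.30, -0.06 and -0.10 without overexpression replicates 1, 2 and 3. The 4 limma adjusted p-values lay between 0.674 and 0.970.

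The summed FPKM of the 19 ligands was between 31.7 and 35.5 in control and between 29.2 and 35.6 in overexpressing cells, of which WNT5B alone gave between 58.1% and 65.4%. WNT7B, just under the level required for testing, was at 0.82, 0.78 and 1.10 FPKM in control and at 0.69, 0.67 and 0.61 FPKM in overexpressing cells, so that its overexpression values were all lower. Tested with the lower requirement of a mean of 0.1 FPKM, WNT7B had a log2 fold change of -0.19 and a limma adjusted p of 0.542. Among genes with a mean between 0.1 and 1 FPKM, the groups did not overlap in 12.5%. WNT10B lay between 0.38 and 0.66 FPKM with overlapping groups, and the other 13 ligands were below 0.5 FPKM in every library. The ligands best known for driving beta-catenin in assays, WNT1 and WNT3A, did not exceed 0.09 and 0.02 FPKM. Ligand genes that are neighbours on a chromosome differed in level: WNT3 averaged 3.21 FPKM beside WNT9B at 0, WNT10B 0.527 FPKM beside WNT1 at 0.015 FPKM, and WNT6 0.247 FPKM beside WNT10A at 0.0917 FPKM.

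Of the 10 Frizzled genes, which encode the serpentine membrane receptors for Wnt proteins, 7 were tested and each of the 7 was at 3.17 FPKM or more in every library. FZD2 (ENSG00000180340, chromosome 17), a receptor for WNT5A among others, was the most abundant, at 33.4, 32.0 and 30.6 FPKM in control and at 29.8, 28.6 and 30.2 FPKM in overexpressing cells. Its overexpression values were all below the controls by a narrow margin, and the log2 fold change was -0.11 (SE 0.06, limma adjusted p = 0.482). FZD5 (chromosome 2) was likewise lower without overlap, at 3.79, 3.73 and 3.67 against 3.17, 3.63 and 3.56 FPKM, while FZD1 (chromosome 7) was higher without overlap, at 8.26, 8.51 and 8.16 against 8.71, 9.15 and 8.69 FPKM. These 2 differences were small, with log2 fold changes of -0.09 and 0.08 and limma adjusted p-values of 0.776 and 0.721. FZD6, FZD8, FZD3 and FZD7 overlapped between groups: over the 6 libraries FZD6 lay between 18.8 and 22.3 FPKM, FZD8 between 4.97 and 5.92 FPKM, FZD3 between 4.46 and 6.0 FPKM and FZD7 between 3.44 and 4.34 FPKM. FZD6 and FZD3 act mainly in planar cell polarity, the branch that orients cells within a sheet.

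Below the tested receptors, FZD4, which also binds norrin, was at 0.68, 0.48 and 0.58 FPKM in control and at 0.67, 0.78 and 0.92 FPKM in overexpressing cells. FZD9 and FZD10 did not exceed 0.02 FPKM. The summed FPKM of the 10 receptors was between 79.3 and 80.7 in control and between 76.0 and 80.7 in overexpressing cells, and FZD2 gave between 37.4% and 41.4% of it.

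The co-receptors LRP5 and LRP6, single-pass proteins whose phosphorylated tails recruit axin, were expressed at like levels. LRP5 (chromosome 11) was at 19.6, 20.1 and 17.8 FPKM in control and at 18.2, 16.7 and 17.9 FPKM in overexpressing cells (log2 fold change -0.11, SE 0.07, limma adjusted p = 0.562). LRP6 (chromosome 12) was at 15.6, 15.6 and 23.3 FPKM in control and at 17.9, 15.8 and 18.6 FPKM in overexpressing cells (log2 fold change -0.04, SE 0.14, limma adjusted p = 0.940). Control replicate 3 was the highest library for LRP6 and gave it the widest control spread of the 21 tested members, a coefficient of variation of 24.3% against a median of 5.08%. Without that library the log2 fold change of LRP6 was 0.14, on the other side of 0.

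In the R-spondin module the receptor LGR4 was present and its ligands were scarce. LGR4 (chromosome 11), a receptor with a large leucine-rich extracellular domain, was at 14.9, 14.9 and 16.2 FPKM in control and at 16.3, 14.6 and 17.6 FPKM in overexpressing cells, with overlap (log2 fold change 0.07, limma adjusted p = 0.796). LGR5, a stem cell marker of the intestine, did not exceed 0.36 FPKM, and LGR6 reached 0.59 FPKM in control replicate 1 alone and 0.48 FPKM in overexpression replicate 3. RSPO3 (ENSG00000146374, chromosome 6) was at 0.44, 0.55 and 0.74 FPKM in control and at 1.58, 0.97 and 1.10 FPKM in overexpressing cells. All 3 overexpressing libraries were higher, with means of 0.577 ± 0.152 and 1.22 ± 0.321 FPKM, and RSPO3 at a mean of 0.897 FPKM over the 6 libraries lay just below the level required for testing, as WNT2B at 1.07 FPKM just met it. With the requirement lowered to 0.1 FPKM, the RSPO3 groups differed by 0.49 on the log2(FPKM + 1) scale (SE 0.13, limma adjusted p = 0.196). That scale shrinks differences at so low a level, and the ratio of the RSPO3 means in FPKM was 2.11. Among the 2674 genes that the lower requirement adds, the groups did not overlap in 12.5%. RSPO1, RSPO2 and RSPO4 stayed at or below 0.21 FPKM.

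The intracellular members differed in level from one another far more than between groups. CTNNB1 (ENSG00000168036, chromosome 3), which encodes beta-catenin, was at 132, 130.4 and 131 FPKM in control and at 118, 125 and 127 FPKM in overexpressing cells, lower without overlap. The means were 131 ± 0.949 and 124 ± 4.78 FPKM, and the log2 fold change was -0.09 (SE 0.05, 95% interval -0.19 to 0.02, limma adjusted p = 0.483), or -0.05 without overexpression replicate 1. AXIN1 (chromosome 16), the constitutive scaffold of the destruction complex, was at 17.0, 16.9 and 15.5 FPKM in control and at 16.9, 17.2 and 15.9 FPKM in overexpressing cells. AXIN2 (chromosome 17), a feedback inhibitor whose transcription beta-catenin drives in most tissues, was at 1.44, 1.35 and 1.48 FPKM in control and at 0.96, 1.28 and 1.41 FPKM in overexpressing cells. The AXIN1 groups overlapped, as did those of AXIN2, where overexpression replicate 1 was the lowest library (log2 fold change -0.13, SE 0.13, limma adjusted p = 0.733, and -0.05 without that library).

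**Figure D3:**
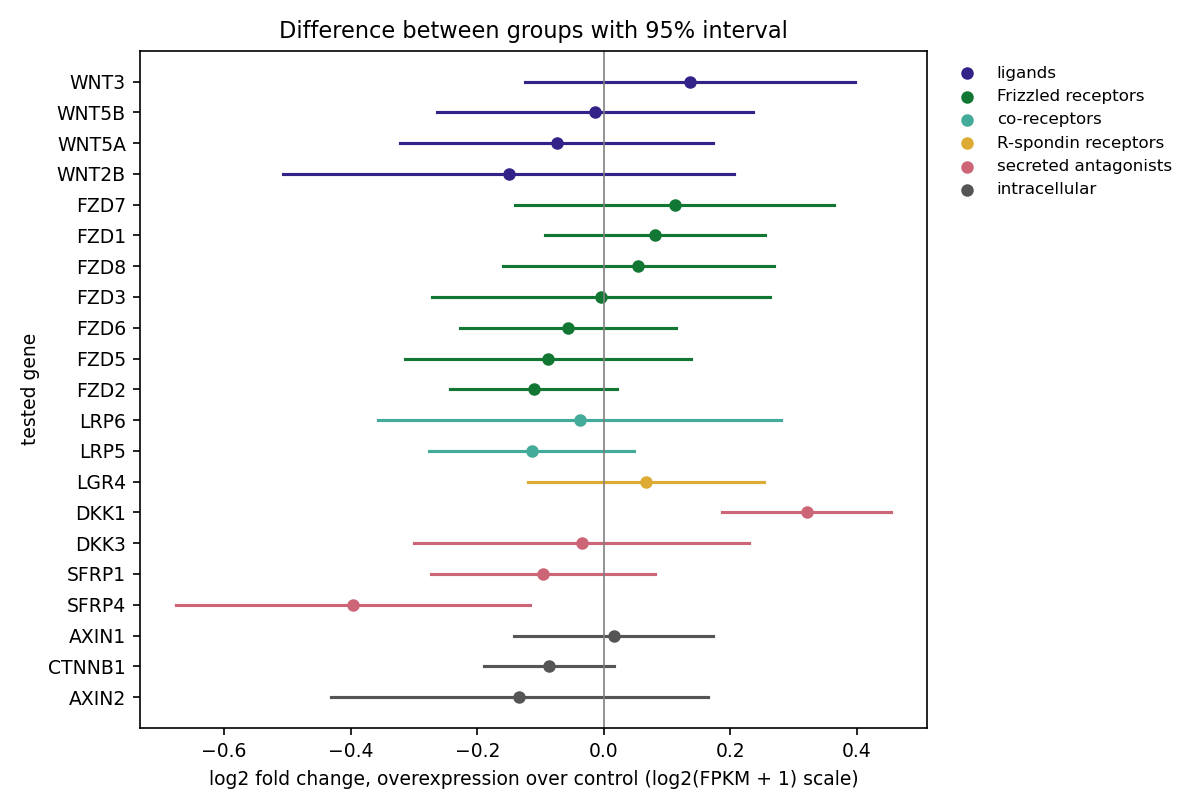
Log2 fold change of overexpression over control on the log2(FPKM + 1) scale for the 21 tested members, coloured by role, with the 95% interval from limma as a line. The intervals of DKK1 and SFRP4 alone lie wholly on one side of 0, before adjustment for the 11731 genes tested.

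The precision of these libraries bounds the members' differences on the log2(FPKM + 1) scale only. On that scale, the 95% interval lay within a 1.3-fold difference in either direction for 16 of the 21 tested members. It lay within 1.5-fold for 20, the exception being SFRP4, and within 2-fold for all 21. For members near 1 FPKM, such as WNT2B at a mean of 1.07 FPKM and AXIN2 at 1.32 FPKM, the added 1 narrows the interval. These are therefore not bounds on the ratio of FPKM values. The coefficient of variation within a group had a median of 5.08% in control and 8.84% in overexpressing cells. Overexpression replicate 2 was the lowest of the 6 libraries for 8 of the 21 members, with WNT5B and DKK3 among them, and no other library was the lowest for more than 4.

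Other genes of the pathway were taken from lists by role, and in each list up to 4 were named because their p was lowest. Of 97 listed genes 72 were tested and 0 passed over all genes, against 0.520% of all genes tested. At an unadjusted p under 0.05 there were 11, and in 17 of the 72 the groups did not overlap, 6 higher and 11 lower, where the shares over all tested genes were 12.7% and 18.9%. Their median log2 fold change was -0.04. Known targets of beta-catenin with TCF were the list with the highest median, 0.11, with 10 of 12 tested members above 0 and 2 below. The list leaves out the targets AXIN2 and DKK1, which count among the 51 members and had log2 fold changes of -0.13 and 0.32. In 3 of the 12 the groups did not overlap, against 18.9% of all tested genes in either direction, and all 3 were higher (8.81%). At an unadjusted p under 0.05 were 4 of the 12 (12.7% of all tested genes).

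MYC (chromosome 8), a growth-promoting transcription factor, was at 32.6, 32.7 and 30.3 FPKM in control and at 45.2, 37.0 and 38.0 FPKM in overexpressing cells (log2 fold change 0.32, limma adjusted p = 0.140). TBX3, a T-box factor, was at means of 9.16 ± 0.529 and 11.1 ± 0.176 FPKM, and ID2, an inhibitor of helix-loop-helix factors, at 59.8 ± 5.81 and 77.4 ± 13.4 FPKM. VCAN, the matrix proteoglycan versican, was at 8.02 ± 1.69 and 11.0 ± 1.19 FPKM with overlapping groups. The limma adjusted p-values of TBX3, ID2 and VCAN were 0.219, 0.239 and 0.249. Without overexpression replicate 2 the log2 fold change of ID2 was 0.22 in place of 0.36. In the other 8 tested targets the groups overlapped, with log2 fold changes from -0.11 (CD44) to 0.18 (NOTUM). LEF1 among them lay between 4.33 and 5.26 FPKM (log2 fold change -0.05) and ZNRF3, which removes Frizzled receptors from the surface, between 3.75 and 4.58 FPKM (log2 fold change 0.12). The 11 targets too low to test include TNFRSF19, a receptor of the TNF family, at means of 0.853 ± 0.0702 and 1.12 ± 0.199 FPKM (SD, n = 3 each). It was higher without overlap, where 12.5% of genes with a mean between 0.1 and 1 FPKM did not overlap in either direction. APCDD1, a membrane inhibitor of Wnt signalling, was at 0.35, 0.56 and 0.39 FPKM in control and at 1.77, 0.59 and 0.44 FPKM in overexpressing cells, where replicate 1 stood apart. FGF20 was at 0.84 FPKM in overexpression replicate 2 and at 0.19 FPKM or less in the others, and TCF7 was at means of 0.813 ± 0.199 and 0.937 ± 0.0643 FPKM with overlapping groups. NKD1, RNF43, CCN4 and CCN5 did not exceed 0.48 FPKM, and SP5, NKD2 and ASCL2 were listed at 0 in all 6 libraries. MYC, TBX3, ID2 and VCAN were named because their p was the lowest of this list, and its other genes after their values were seen.

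Of 23 tested cytoplasmic transducers, 0 passed and 3 were at an unadjusted p under 0.05, where 12.7% of all tested genes were. The groups did not overlap in 7, against 18.9% of all tested genes, 2 higher (8.81%) and 5 lower (10.1%). TNKS (chromosome 8), the tankyrase that marks axin for degradation, was at 14.7 ± 0.574 and 12.5 ± 0.717 FPKM, and CTNNBIP1, which keeps beta-catenin from TCF, at 11.5 ± 1.52 and 9.61 ± 0.376 FPKM. JUP, or plakoglobin, a relative of beta-catenin at cell junctions, was at 31.2 ± 2.05 and 27.1 ± 2.79 FPKM, and CSNK1D, a casein kinase, at 130.2 ± 2.03 and 121 ± 5.45 FPKM. Their limma adjusted p-values lay between 0.277 and 0.395. Of 14 tested nuclear factors, 0 passed. In 1 of them, the corepressor TLE2, the groups did not overlap, against 18.9% of all tested genes. TLE2 was at 2.95, 3.49 and 3.68 FPKM in control and at 2.19, 2.03 and 2.65 FPKM in overexpressing cells (log2 fold change -0.41, limma adjusted p = 0.207). CBY1, TLE1 and BCL9 overlapped, and TCF7L2, the most abundant TCF factor here and named after its values were seen, lay between 17.98 and 22.03 FPKM.

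In the planar polarity and calcium branch 13 genes were tested, 0 passed and 2 were at an unadjusted p under 0.05, against 12.7% of all tested genes. Their median was -0.09 with 11 below 0. The groups did not overlap in 4, against 18.9% of all tested genes in either direction, and all 4 were lower (10.1%). CELSR2, a polarity cadherin, was at 10.9, 10.8 and 9.60 FPKM in control and at 8.22, 7.52 and 8.92 FPKM in overexpressing cells, lower without overlap (log2 fold change -0.31, limma adjusted p = 0.195). INVS, NFATC1 and the small GTPase RHOA, the last named after its values were seen, were lower without overlap too (log2 fold changes -0.21, -0.18 and -0.06), and VANGL1, a polarity membrane protein, overlapped (log2 fold change 0.13). Of 8 tested co-receptors and regulators of receptor turnover, 0 passed and 1 was at an unadjusted p under 0.05, against 12.7% of all tested genes. PTK7, a polarity co-receptor, was the 1 without overlap, against 18.9% of all tested genes, at 44.3 ± 1.24 and 40.3 ± 1.51 FPKM. GPC4, a glypican, and KREMEN1, a receptor for DKK1 that helps to remove LRP6, had log2 fold changes of -0.13 and -0.36 with limma adjusted p-values of 0.396 and 0.397, and SDC1 had one of 0.09. Leaving out control replicate 1 gave -0.22 for KREMEN1, and leaving out overexpression replicate 2 gave 0.02 for SDC1.

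Genes that mature and release Wnt proteins, or remove their lipid, overlapped between groups. WLS, the carrier that takes Wnt proteins to the surface, was at 66.6 ± 2.40 and 64.6 ± 3.41 FPKM, PORCN, the enzyme that attaches the lipid, at 8.85 ± 1.85 and 7.71 ± 0.541 FPKM, and NOTUM, the enzyme that removes it, at 4.38 ± 0.912 and 5.14 ± 1.54 FPKM. Among 10 other secreted modulators 2 were tested and 0 passed. NDP, which encodes norrin, a ligand of FZD4, was higher without overlap, as were 8.81% of all tested genes. It was at 3.37 ± 0.107 and 3.95 ± 0.464 FPKM (log2 fold change 0.18, limma adjusted p = 0.552), and IGFBP4 was at 7.93 ± 0.647 and 6.64 ± 1.14 FPKM.

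**Figure D4:**
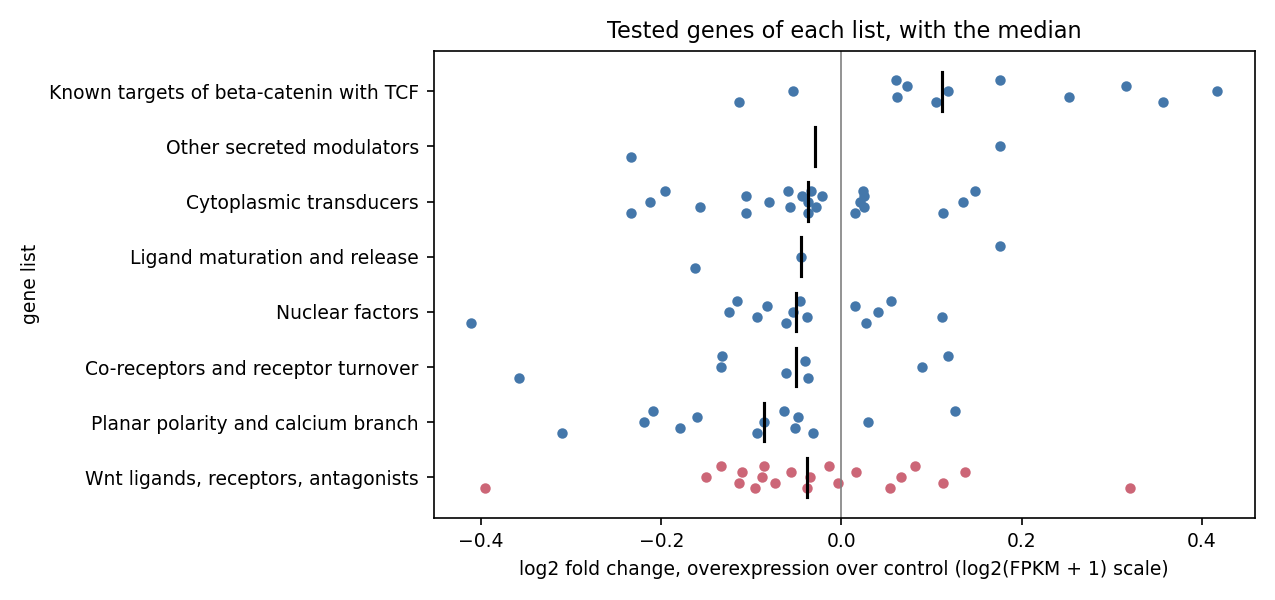
Log2 fold change of overexpression over control on the log2(FPKM + 1) scale, 1 point per tested gene, for the Wnt ligands, receptors and antagonists (red, 21 genes) and for 7 lists of other pathway genes (blue), with the median of each as a black bar. Points are spread vertically for legibility only, and the beta-catenin targets have the highest median, 0.11, while no gene shown passed over all genes.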

How the data were processed

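The authors deposited 1 table per library of gene-level FPKM values with 2 decimals. Tools listed in the submitters' processing notes, without roles, are edgeR, RSEM 1.3.1, Cufflinks 2.2.1, Bowtie and TopHat, and hg18 is the build listed. Per the labels' protocols the RNA was poly(A) selected, whereas the series' design text describes cytoplasmic RNA without such selection. No source used here says whether counting used strand, so reads of antisense neighbours cannot be told apart. Incomplete last lines of 5 tables, all in assembled loci, were left out.

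Symbols matched 19447 of 20330 identifiers. Chromosomes and gene types came from GENCODE 29. Genes present in all 6 tables whose mean reached 1 FPKM were tested on log2(FPKM + 1) with limma 3.58.1 (trend, two-sided, Benjamini-Hochberg) in R 4.3.3, with no further scaling, and the script was tested on simulated data. An exact permutation test of 3 against 3 cannot go below p = 0.1. Relative depth is the most frequent ratio between low values of 70 to 92 genes. Members and lists were chosen with earlier results of these data known. All 51 members are accounted for, those tested or above 0.5 FPKM by name. Of the other pathway genes, up to 4 per list with the lowest p are named. Alternatives changed the pseudocount, the filter, the scaling, the trend, the weights, the block and the libraries.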

Additional observations from a re-analysis of the deposited data

How the results depend on the processing

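Over all tested genes 61 passed in limma, and the number was 197 with array quality weights, 28 when a mean of 0.1 FPKM sufficed, 1 without any filter, 1 when limma used no trend, and between 1 and 60 with any 1 library left out. The count of members that passed, 0, became 1 with array quality weights (DKK1), and remained 0 under the other planned settings, as did that of the other pathway genes under all of them. The replicate numbers did not pair the libraries (correlations of same-numbered libraries -0.04, -0.06 and 0.04), and with the replicate number as a block 19 genes passed, 0 of them members, and not every library correlated best with its own number. With array quality weights some log2 fold changes near 0 turned sign, to -0.0162 for AXIN1, 0.0777 for FZD3, 0.0806 for LRP6, 0.0124 for WNT5B and -0.0158 for TCF7L2, and the cause was not tested. With 1 library left out, the range was -0.0246 to 0.0456 for AXIN1, -0.12 to 0.12 for DKK3, -0.106 to 0.0728 for FZD3, -0.12 to 0.00096 for FZD6, -0.13 to 0.14 for LRP6, -0.155 to 0.0189 for WNT5A, -0.10 to 0.12 for WNT5B, -0.0969 to 0.00748 for LEF1, -0.021 to 0.288 for NOTUM and -0.00428 to 0.135 for TCF7L2. Of 51 named log2 fold changes, 32 moved by over 1.5 times or turned sign with some library left out, and 0 of the 32 passed in such a fit. DKK1 kept a log2 fold change between 0.27 and 0.37 in these fits (limma adjusted p from 0.0682 to 0.202) and SFRP4 one between -0.46 and -0.30. FPKM values carry no read totals, so members at a few hundredths of an FPKM cannot be told from 0.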
